A study of Arabidopsis thaliana with 9 samples.

Results

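Root tips of the near isogenic line (NIL) 170G-55-16, which the labels also name HGI2.1, were set against root tips of the accession Cvi (Cape Verde Islands, Cvi-1 in the labels). All 3 arrays of the NIL and all 3 of Cvi were used, 6 of the 9 arrays in the series, and the other 3 arrays hold the accession Ler-2 (Landsberg erecta). All 3 genotypes were untreated Arabidopsis thaliana seedlings that were 5 d old, grown for 2 d on upright hard agar plates and for 3 d on plates tilted back by 30°. RNA for 1 array came from a pool of about 600 root tips, each 7 mm long, and the labels call each pool a biological replicate. The NIL is a single line, so what it shares with other lines of its kind was not measured. The labels do not say which segment of which accession the line carries.

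A near isogenic line keeps a short stretch of one parent's chromosomes in a genome that otherwise comes from another parent. Where the line and an accession hold the same alleles, their transcripts are often alike, and where they hold different alleles, differences in promoters, gene copies and regulators can change transcript levels. Accessions of Arabidopsis are known to vary in families that face soil organisms, such as terpene synthases, peroxidases, lectins and defence peptides. On an oligonucleotide array a base that differs under a probe can also lower a signal, and whether probes matched the genotypes equally was not tested here. In pooled tissue, fewer cells of a type and less RNA per cell cannot be told apart.

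The arrays gave a normalized hybridization signal for each probe set, and levels and differences are given here on the log2 scale. A difference is NIL minus Cvi, and positive values mark signals that were stronger in the NIL. Adjusted p-values came from limma, after Benjamini-Hochberg correction over 22746 probe sets, and a probe set was called at an adjusted p under 0.05 together with a fold of at least 2. Of these probe sets, 13513 have 1 gene in the annotation used. Median signals lay between 110 and 114 on the NIL arrays and between 112 and 115 on the Cvi arrays, on the linear scale. The NIL arrays correlated with each other at r = 0.996 to 0.997 across probe sets and with the Cvi arrays at r = 0.963 to 0.982. Cvi array 1 stood apart, at r = 0.978 and 0.980 with the other Cvi arrays, and lay at least 2-fold from their mean at 4.55% of probe sets, against at most 0.202% for any other array of the series. Counts and lists are therefore also given without it. Of the markers listed for root hairs, meristem, vascular tissue and green shoot tissue, the root hair expansin genes EXPA7 and EXPA18 alone were named in the annotation. Their summed linear signal was 2190 to 2485 in the NIL and 2159 to 2791 in Cvi, and neither was called. The tissue label could not be checked further by markers.

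The NIL and Cvi differed at 772 of 22746 probe sets, 3.39% of those tested. Of these, 407 (1.79%) were higher in the NIL and 365 (1.6%) were lower. The signals of the 3 NIL arrays and the 3 Cvi arrays did not overlap at any of the 772 called probe sets. The calls rest on the same values, so this is no separate evidence. A difference of at least 16-fold was found at 13 called probe sets in each direction, and one of at least 4-fold at 102 that were higher in the NIL and 70 that were lower. The median difference over all probe sets was −0.02. Leaving out Cvi array 1 gave 713 calls, 379 higher and 334 lower, of which 613 were also called with all arrays and none of these had the opposite sign. Most probe sets were close in both genotypes, as the 95% confidence interval of the difference lay wholly within 2-fold at 90.3% of probe sets. A further 1438 probe sets were neither called nor bounded within 2-fold.

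Among the genes with a higher signal in the NIL, AT4G22212 had the largest difference. It encodes a defensin-like protein, of a class of small cysteine-rich peptides that includes antimicrobial ones. Its log2 signal was 11.65, 11.55 and 11.52 on the NIL arrays and 4.19, 4.58 and 4.49 on the Cvi arrays. The NIL was therefore far above the Cvi arrays, by 7.16 (standard error 0.13, adjusted p = 7.37e-10 from limma). AT1G34510, a class III peroxidase gene of the family that forms and breaks bonds in cell walls with hydrogen peroxide, had 9.09, 9.10 and 8.92 in the NIL and 3.31, 3.75 and 3.79 in Cvi. It followed at a difference of 5.42 (standard error 0.16). AT3G22570, of the lipid transfer protein superfamily, had 10.52, 10.67 and 10.52 in the NIL and 5.49, 5.67 and 5.53 in Cvi, a difference of 5.01. AT4G13860, of the glycine-rich RNA-binding proteins, differed by 4.78.

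The other 11 genes of this rank had differences of 3.11 to 4.77. The terpene synthase genes AT3G29410, AT1G33750 and AT1G70080, whose products build the carbon skeletons of terpenes, differed by 4.77, 4.10 and 4.00. AT3G06460, of a family of fatty acid elongases, was higher by 4.10, and the jacalin lectin gene AT5G35940 by 4.05. AT4G26910, a dihydrolipoamide succinyltransferase gene of the mitochondrial citric acid cycle, had signals of 11.34, 11.41 and 11.42 in the NIL and 7.93, 7.81 and 7.52 in Cvi. It thus differed by 3.64 with a high level in the NIL and a moderate one in Cvi. The cupredoxin gene AT3G27200 was higher by 3.51 (standard error 0.35), with a wide spread of 5.81, 7.69 and 6.52 in Cvi. The dehydrin gene LTI30, whose product accumulates in cold and drought, was higher by 3.24. The cytochrome P450 gene CYP71B34, AT5G19240 of GPI-anchored glycoproteins, and the germin-like gene AT1G18980 were higher by 3.17, 3.16 and 3.11.

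The gene with the largest difference in the other direction was QQS (AT3G30720), an orphan gene that is known to alter starch content. Its signal was 4.03, 4.07 and 3.99 in the NIL and 9.47, 11.04 and 10.65 in Cvi, so that the 3 NIL arrays lay together at a low level and the Cvi arrays spread over a wide, much higher range. The difference was −6.36 (standard error 0.31, adjusted p = 3.87e-07 from limma). AT4G19730, of the family 18 chitinase-like hydrolases, had 4.66, 4.45 and 4.38 in the NIL and 9.78, 9.19 and 9.60 in Cvi. Its difference of −5.03 was followed by −4.86 for the bromodomain gene AT1G58025, of a domain that binds acetylated histones, and −4.80 for the cystatin-like gene AT1G03710.

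Genes of several unrelated classes followed. AT5G54020 and AT5G54040, which lie close together and encode proteins rich in cysteine and histidine, differed by −4.10 and −3.97. The aldo-keto reductase gene AT1G60730 had a difference of −4.06, the OB-fold gene AT1G52950 one of −3.86 and AT5G45500, a gene of leucine-rich repeat proteins, one of −3.75. Lower signals in the NIL were also found for the terpene synthase gene AT4G20230 at −3.86, the major latex protein-like gene AT1G30990 at −3.80 and the glycosyltransferase gene AT4G15260 at −3.53. The remaining genes of this rank were AT3G29787 at −4.12, AT2G15560 at −4.05 and AT4G27400 at −3.71. In the plot of the 30 largest differences, Ler-2 lay beside the NIL at every gene, with a NIL minus Ler-2 difference between −0.39 and 0.55. Over all 772 calls, the interval of NIL minus Ler-2 lay within 2-fold at 92.9%, and the same share over all probe sets is not given here. Over all probe sets the median size of NIL minus Ler-2 was 0.09, and that of NIL minus Cvi was 0.16. The comparison with Ler-2 shares the NIL arrays with the one against Cvi. At 17 of the 30 genes, the lower genotype had a mean log2 signal at or under 5.37, below which lay the dimmest 33.3% of probe sets. The part of the background in these folds was not tested.

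**Figure D1:**
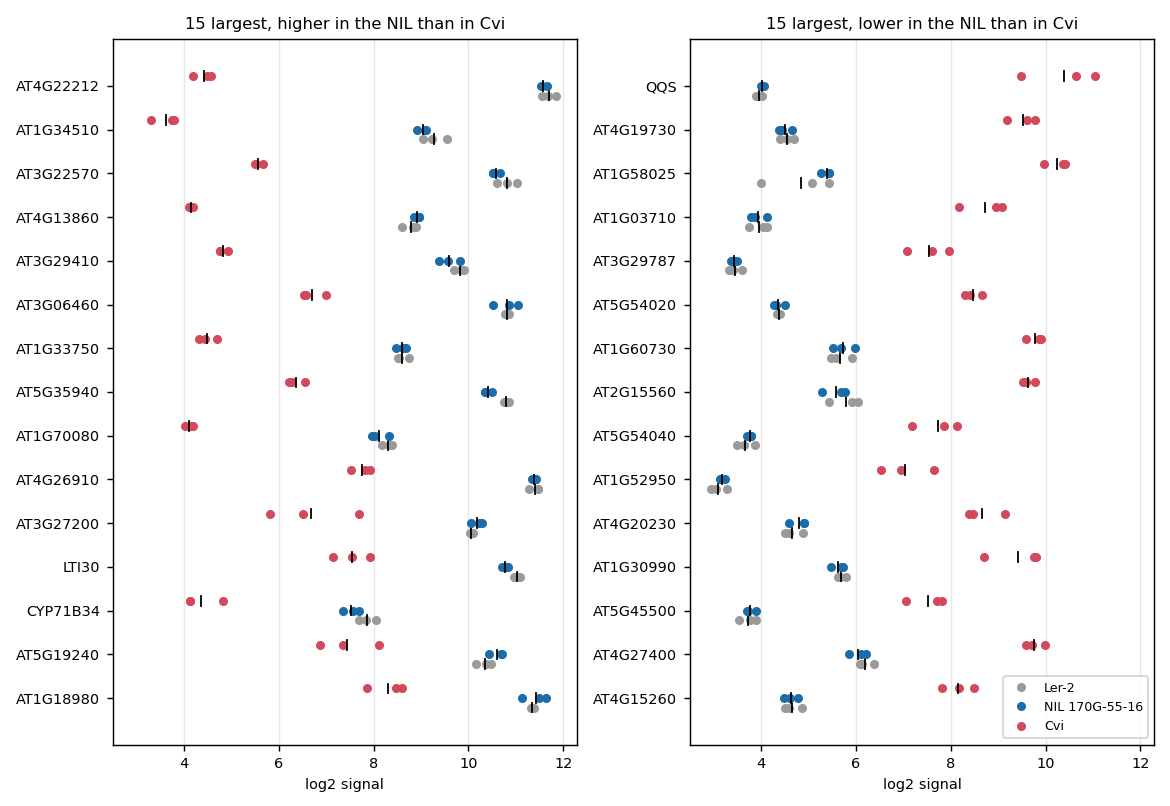
The log2 signal (x axis) of each array is shown as a point and the genotype mean as a bar for the 15 genes with the largest NIL minus Cvi difference in each direction, among called genes. The NIL points lie beside the Ler-2 points and away from the Cvi points at all 30 genes, for example at 11.52 to 11.65 against 4.19 to 4.58 for AT4G22212.

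OCT1 (AT1G73220), the organic cation transporter gene on chromosome 1 that gave the study its subject, had signals of 4.70, 4.48 and 5.41 on the NIL arrays and 9.20, 7.37 and 7.97 on the Cvi arrays. The groups did not overlap, and the NIL was lower by 3.31 (standard error 0.40), with a 95% confidence interval from −4.20 to −2.43 and an adjusted p of 3.54e-04 in limma. An exact two-sided permutation test of OCT1 alone gave p = 0.1, the smallest that 3 arrays against 3 allow. The family members OCT4 and OCT5 had differences of −0.41 and −0.13 and were not called. Of the 19 probe sets that the study lists for its chromosome 1 interval, 7 were higher in the NIL than in Cvi, 4 were lower and 8 were not called. The study had picked them from these Cvi arrays, so the count carries no independent evidence. AT1G73260, a trypsin inhibitor gene, was higher in the NIL by 3.60, MKK9, a MAP kinase kinase gene, by 2.50 and the phosphoglucomutase gene AT1G70730 by 2.36. DR4, another protease inhibitor gene, was lower by 2.66 and the lupeol synthase gene LUP1 by 1.93.

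Gene families of secondary metabolism and defence held calls in both directions. Among terpene synthases, 5 of 17 named genes were higher in the NIL and 1 was lower, 35.3% against 3.39% of all probe sets. Besides the 4 already described these were AT5G48110 at 2.93, with 9.02 ± 0.12 in the NIL and 6.09 ± 0.19 in Cvi (SD, n = 3 arrays each), and AT1G31950 at 1.10. The median over the family was 0.06, and the other 11 members were not called. In the major latex protein-like family, a group of small proteins thought to bind hydrophobic ligands, 4 of 16 members were higher in the NIL and 2 were lower, 37.5% in all. AT4G23680 at 2.30 and AT4G23670 at 1.93 are neighbours, and AT1G70880 at 2.26 and AT1G23120 at 1.56 were higher as well. AT1G30990 and AT3G26450 were lower, and the latter lost its call without NIL array 1 or 3 or Cvi array 2 or 3.

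Enzymes of the cell wall also differed at single members. Of 55 named class III peroxidase genes, 3 were higher in the NIL and 2 lower, or 9.09% against 3.39% of all probe sets. Apart from AT1G34510 these were AT4G36430 at 2.23, AT1G71695 at 1.46, AT2G35380 at −1.21 and AT5G06730 at −1.28. AT4G36430 rests on a wide spread, 9.25, 8.05 and 7.51 in the NIL and 7.42, 5.18 and 5.53 in Cvi, and its call was lost when any of NIL arrays 1 and 2, Cvi arrays 2 and 3 or Ler-2 arrays 2 and 3 was left out. The call of AT5G06730 was lost without Cvi array 1, NIL array 2 or NIL array 3. EXLA1, an expansin-like gene, was higher by 2.59 and XTH18, a xyloglucan endotransglucosylase gene that acts on wall polymers, by 1.88, while XTH26 was lower by 1.21. These were the calls among 29 expansin and xyloglucan endotransglucosylase genes, 10.3%.

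Of 15 named chitinase genes, 26.7% were called, against 3.39% of all probe sets. The 3 that were lower in the NIL were AT4G19730, AT2G43590 at −3.18 and AT4G19720 at −1.15. AT2G43620 was higher by 1.07, and lost its call without Cvi array 1 or NIL array 1. AT4G19720 and AT4G19730 are neighbours and were lower together. The germin-like genes, whose family includes oxalate oxidases in cereals, had 1 call in each direction among 12 (16.7%), AT1G18980 and AT5G38910 at −2.16. Jacalin lectins and nitrile specifiers, which act with glucosinolate breakdown, had 1 higher (AT5G35940) and 2 lower (AT1G60130 at −1.81 and JAL22 at −1.02) among 19, or 15.8%. Of 22 berberine bridge enzyme-like genes, AT1G30760 was lower at −1.68, a share of 4.55%, which is near the 3.39% of all probe sets. AT4G22212 is not in the list of 15 defensins that carry a defensin symbol. None of these was called in limma, with 2 at an unadjusted p under 0.05 and 1 call, lower in the NIL, without Cvi array 1.

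**Figure D2:**
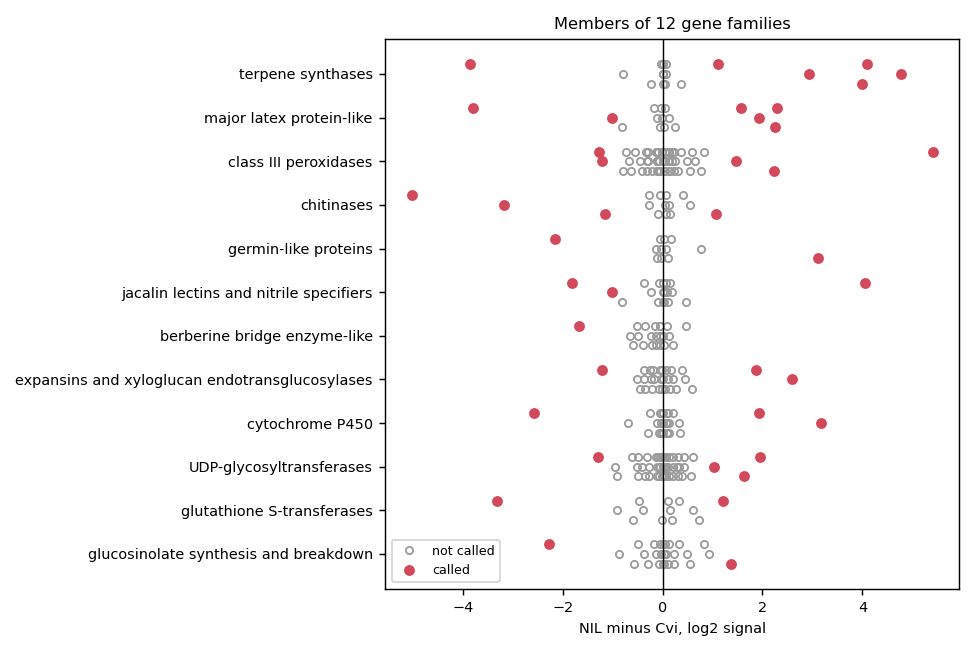
Each point is the NIL minus Cvi difference in log2 signal (x axis) of a probe set in 12 gene families (rows), filled where called. Most members lie near 0, with a median of 0.06 for terpene synthases, while single members reach 5.42 among class III peroxidases and −5.03 among chitinases.

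Enzymes that modify small molecules held calls as well. Of 26 cytochrome P450 genes, 11.5% were called, against 3.39% of all probe sets. Among these, CYP71B34 and CYP51G2 (1.94) were higher in the NIL and CYP71B37 was lower at −2.58, with 4.66, 4.75 and 4.83 in the NIL and 7.53, 7.14 and 7.32 in Cvi. Of 52 UDP-glycosyltransferase genes with a UGT symbol, UGT85A2 (1.96), UGT84A1 (1.63) and UGT71C3 (1.02) were higher and UGT84A4 (−1.30) was lower, 7.69% in all. UGT71C3 lost its call without NIL array 3 or Cvi array 3. UGT85A2 had the tightest levels of these, 10.44, 10.42 and 10.47 in the NIL and 8.54, 8.44 and 8.48 in Cvi. Among 13 glutathione transferase genes, whose products conjugate toxins with glutathione, 15.4% were called, of which GSTU28 was higher by 1.20 and GSTU15 lower by 3.32. GSTU28 lost its call without Cvi array 1. For glucosinolates, AOP1, of a family that modifies their side chains, was higher by 1.37, and BGLU43, of the glucosidase family that includes the myrosinases, was lower by 2.28, among 27 genes (7.41%).

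Some regulators and transporters were called as well. BHLH101, whose product regulates genes under iron deficiency, had 3.63, 4.10 and 3.90 in the NIL and 5.66, 6.22 and 6.30 in Cvi. It was lower by 2.19, the only call among 3 named genes of iron deficiency (33.3%, against 3.39% of all probe sets). The linker histone gene HIS1-3, known to be induced by drought, was higher by 1.68, the only call among 7 histone genes (14.3%). GH3.17, of the enzymes that conjugate auxin to amino acids, was lower by 1.22, the only call among 11 auxin genes (9.09%). Another member of this list had a larger difference of −1.48 and was not called. GH3.17 lost its call without Cvi array 1, and without Cvi array 2 there were 2 calls in the list. In polyamine metabolism, the copper amine oxidase gene AT1G31710 was higher by 1.01 on 1 probe set and the other 14 probe sets were not called (6.67% called). That call was lost without NIL array 2 or 3 or Cvi array 2 or 3. Without Cvi array 1 there were 3 calls in this list, all higher in the NIL. No member was called in limma among 7 WRKY factors (3 at an unadjusted p under 0.05) or 8 calmodulin-like sensors (2 at an unadjusted p under 0.05).

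Transcripts of the plastid genome were called in both directions. Of 69 probe sets, 4 were higher in the NIL and 17 were lower, 30.4% against 3.39% of all probe sets, and the median difference was −0.62. The mean log2 signal over the 69 was 6.01, 5.91 and 5.59 on the NIL arrays, 6.53, 6.21 and 6.27 on the Cvi arrays and 6.16, 6.35 and 6.01 on the Ler-2 arrays. The NIL arrays were therefore all below the Cvi arrays on this measure, and NIL array 3 was the lowest and Cvi array 1 the highest. Without NIL array 3 there were 11 calls, 4 higher and 7 lower, and without Cvi array 1 there were 16, 4 higher and 12 lower. Of the 17 lower calls, 6 held in both of these fits, those of atpA, psbK, psbI, psaI, ccsA and rpoC1. The part of these 2 arrays in the shift was not tested.

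Genes of several plastid complexes were among those called lower with all arrays. The ATP synthase gene atpA had 4.52, 4.59 and 3.78 in the NIL and 7.60, 6.32 and 6.29 in Cvi, a difference of −2.44. Of the small subunits of photosystem II, psbK had 5.82, 5.52 and 4.80 in the NIL and 7.73, 7.67 and 7.94 in Cvi, a difference of −2.40, and its neighbour psbI differed by −1.79. The groups did not overlap for either gene, and Ler-2 at 5.88 to 6.02 for psbK lay above the NIL by less than Cvi did. cemA, an envelope membrane protein gene, differed by −1.73, and accD, which encodes a subunit of acetyl-CoA carboxylase, by −1.61. psaI, psaB and psaJ of photosystem I, petA of the cytochrome complex, the ribosomal protein genes rpl14 and rpl16 and the RNA polymerase gene rpoC1 were lower by 1.13 to 1.53. Without NIL array 3 the calls of cemA, accD, petA, rpl16, psaB and rpl14 were lost, and without Cvi array 1 those of psaB, rpl14 and psaJ.

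In contrast, psbM, ndhI, ndhA and psbJ were higher in the NIL, by 2.85, 2.75, 2.03 and 1.13. The photosystem II gene psbM had 9.37, 9.04 and 8.48 in the NIL and 5.89, 6.22 and 6.24 in Cvi. ndhI, of the NDH complex that feeds electrons into the plastoquinone pool, had 9.65, 9.21 and 9.15 in the NIL and 6.94, 6.45 and 6.37 in Cvi. All 4 kept their call without NIL array 3 and without Cvi array 1, and psbJ lost its call without NIL array 2. Genes that share a transcription unit with these were measured too. Beside psbJ, psbE had 0.82, psbF 0.77 and psbL 0.26. Of these, psbE and psbF passed the adjusted p threshold in limma (0.0031 and 0.0012) and missed the 2-fold one. Beside ndhI and ndhA, ndhH had 0.20, ndhG −0.26, ndhE −0.34, psaC −0.02 and ndhD −0.47. None of the genes beside psbJ, ndhI and ndhA was called. Of 23 probe sets with mitochondrial gene names, 0 were called in limma, 6 had an unadjusted p under 0.05, and the median was −0.08. Among nuclear genes for plastid proteins, the Calvin cycle gene SBPASE was lower by 1.36 and the chlorophyll synthesis gene CHLI2 by 1.67. Both were picked after their values were seen, and the other genes of this class were not listed or counted.

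**Figure D3:**
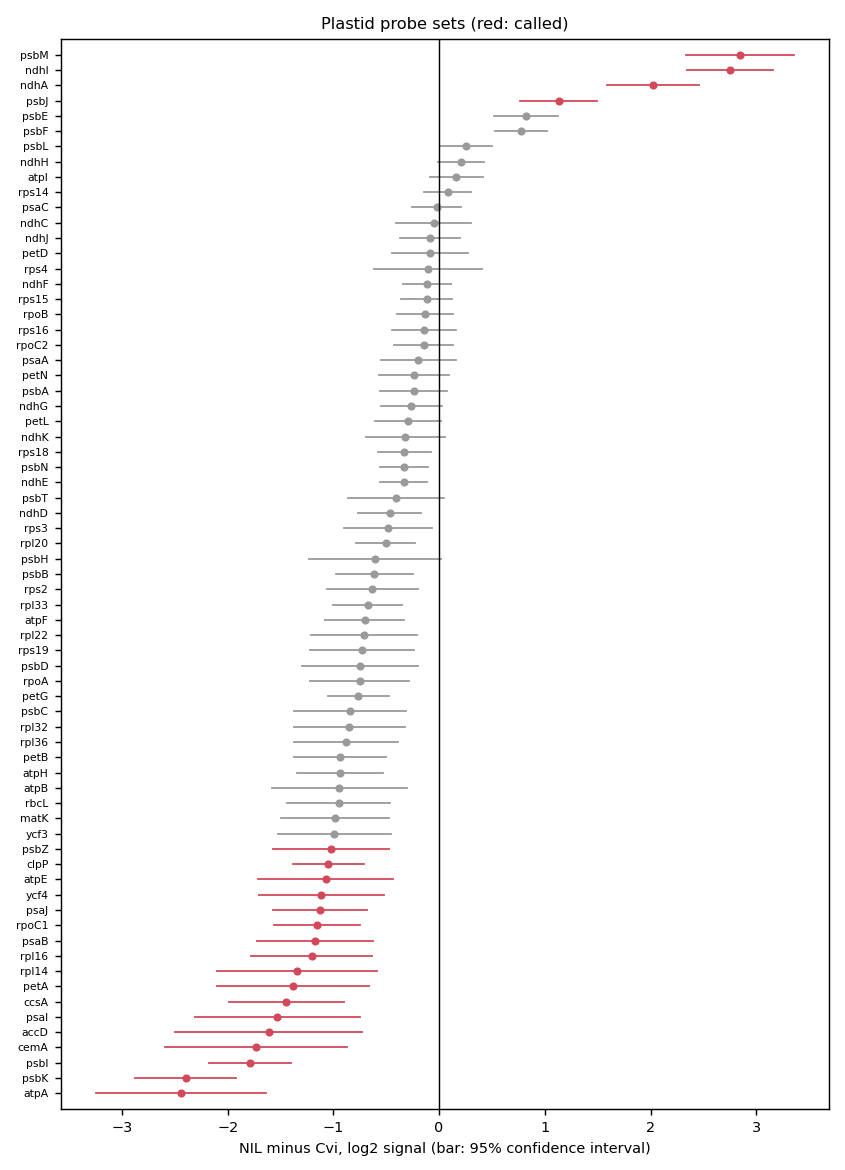
The NIL minus Cvi difference in log2 signal (x axis, with its 95% confidence interval as a bar) is shown for the 69 plastid probe sets, ordered by size and coloured red where called. Most points lie left of 0 around the median of −0.62, while psbM, ndhI, ndhA and psbJ stand on the right between 1.13 and 2.85.

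The differences lay on all 5 chromosomes, but not in equal shares. Of 13217 measured genes with a place in the gene order, 429 were called, 3.25%. The share was 3.49% of 3411 genes on chromosome 1, 3.46% of 2720 on chromosome 3, 4.08% of 1935 on chromosome 4 and 3.42% of 2982 on chromosome 5. On chromosome 2 it was 1.61%, 35 of 2169 genes. Cut into 63 windows of about 200 neighbouring measured genes, the chromosomes had shares up to 8% per window, the highest between AT1G54420 and AT1G60750. The 1 window with no call in limma ran from AT2G21185 to AT2G25640 on chromosome 2 and held 217 genes. Of these, 29 had an unadjusted p under 0.05 in limma, as had 22.1% of all genes placed on the 5 chromosomes. The next windows on the same chromosome, up to AT2G35010, had 0.461% each. In windows of about 100 genes, ones with no call also lay on chromosomes 1, 3 and 5.

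Runs of genes without a call were compared in the same way. The longest run on chromosome 2 had 469 measured genes, between the called genes AT2G19410 and AT2G28780. The longest runs on the other chromosomes had 127 genes on chromosome 1, 159 on chromosome 3, 143 on chromosome 4 and 188 on chromosome 5. The run on chromosome 2 depended on single calls, and without NIL array 1 or Cvi array 2 the longest run of any chromosome had 290 and 259 genes. No test was made along the chromosomes, since neighbouring genes are not replicates.

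**Figure D4:**
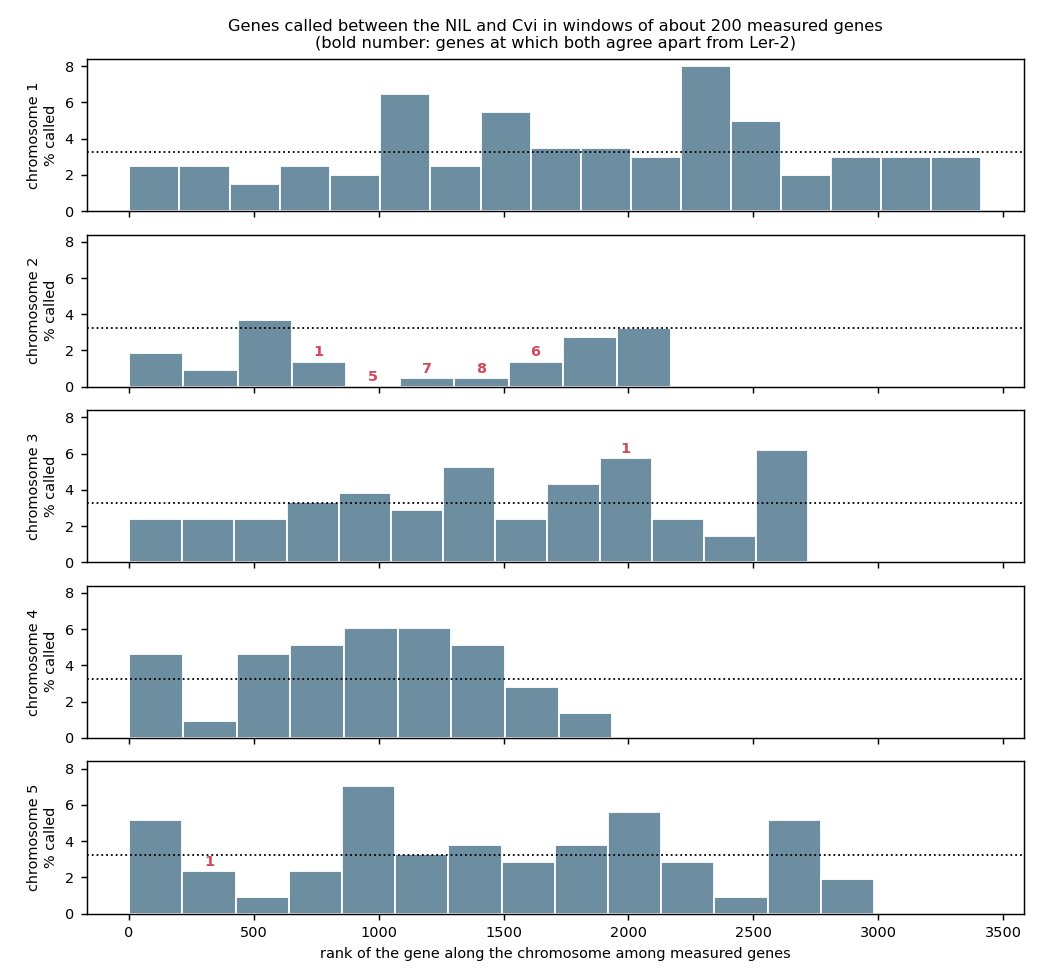
Bars give the percentage of genes called between the NIL and Cvi (y axis) in windows of about 200 measured genes by rank along each chromosome (x axis), the dotted line is 3.25% and bold numbers count genes at which both agree apart from Ler-2. On chromosome 2 the bars fall to 0 to 1.38% where 27 such genes lie. Windows at 0.922%, 0.93% and 0.939% that hold no such gene also lie on chromosomes 2, 4 and 5.

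To find where the NIL had the level of Cvi, probe sets were sought at which both differed from Ler-2. The mean of the NIL and Cvi had to differ from Ler-2 by at least 2-fold at an adjusted p under 0.05, and all 6 arrays had to lie on 1 side of the Ler-2 arrays. The 95% confidence interval of NIL minus Cvi had to lie within 2-fold. The rule was met by 46 probe sets, 11 with a higher signal than in Ler-2 and 35 with a lower one. Of the 29 with a named gene, 27 lay on chromosome 2 between AT2G18620 and AT2G39040, a position the rule did not use. The other two were the sugar transporter gene SWEET11 on chromosome 3 and AT5G07330 on chromosome 5. SWEET11 had 8.58 to 8.93 in the NIL, 8.48 to 8.78 in Cvi and 9.55 to 9.94 in Ler-2. With the interval held within 1.5-fold, 30 probe sets met the rule.

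The genes at which both were below Ler-2 were led by AT2G39040, another class III peroxidase gene. Its signal was 6.18, 6.12 and 6.10 in the NIL, 5.37, 6.10 and 6.01 in Cvi, and 10.49, 10.43 and 10.60 in Ler-2. The NIL and Cvi differed by 0.31 there, and their mean lay 4.53 below Ler-2. AT2G32190 had a joint difference from Ler-2 of −3.07, the tropinone reductase gene TRI one of −2.69 and AT2G29500, a small heat shock protein gene, one of −2.64. For TRI the arrays read 6.04, 5.93 and 5.74 in the NIL, 5.60, 6.22 and 6.19 in Cvi and 8.63 to 8.67 in Ler-2, so that the NIL and Cvi arrays were mixed in order. The serine carboxypeptidase-like gene scpl26 (−2.54), AT2G23400 (−2.52), AT2G21850 (−2.27) and AT2G30990 (−2.20) followed. AT2G34810, of the berberine bridge enzyme-like family, and AT2G18620, of the geranylgeranyl diphosphate synthases that supply terpene precursors, belonged to this group as well, with NIL minus Cvi differences of 0.14 and 0.30. These values chose the genes and are given as a description.

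Both exceeded Ler-2 at AT2G25150 (SCT), which encodes an acyltransferase that makes spermidine conjugates. Its signal was 7.70, 7.68 and 7.84 in the NIL, 6.84, 7.59 and 7.55 in Cvi and 5.74, 4.94 and 5.56 in Ler-2. The NIL exceeded each Cvi array, but by only 0.42 on average (adjusted p = 0.323 from limma), and the mean of both lay 2.11 above Ler-2. AT2G34840, a coatomer subunit gene of vesicle transport, lay 1.74 above Ler-2, AT2G37240 1.37 and the glycosyltransferase gene UGT87A2, known to affect flowering time, 1.21. The jacalin lectin gene AT2G25980 (1.16), CYP71B6 (1.15) and AT2G27440 (1.07) completed the named genes of this direction. Just inside the 2-fold rule were AT5G07330 and AT2G34810, at −1.01 and −1.02.

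**Figure D5:**
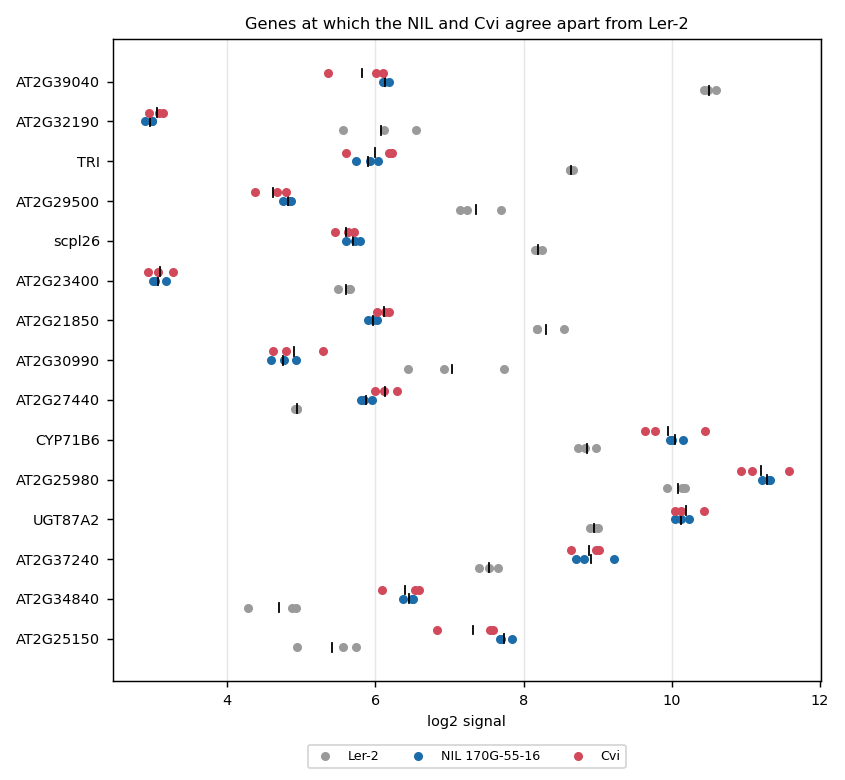
Points are the log2 signals (x axis) of each array and bars the genotype means for the 15 genes with the largest joint difference of the NIL and Cvi from Ler-2. The NIL and Cvi points lie together at every gene, at 5.37 to 6.18 for AT2G39040 against 10.43 to 10.60 in Ler-2.

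Between AT2G18620 and AT2G39040, a stretch whose ends are the outermost of these 27 genes, 991 genes were measured and 5 were called between the NIL and Cvi, 0.505%. The 27 genes could not be called by their own rule, and 964 genes remain without them. On the rest of chromosome 2, 30 of 1178 genes were called, 2.55%, and on the other 4 chromosomes 3.57% of 11048. With the probe sets of the agreement rule left out, the SD of NIL minus Cvi over probe sets was 0.26 in the stretch, 0.38 on the rest of the chromosome and 0.47 elsewhere, and that of NIL minus Ler-2 was 0.26, 0.17 and 0.14. The rule still set the ends of the stretch, and both comparisons share the NIL arrays. The median size of the NIL minus Cvi difference did not follow this order, at 0.12 in the stretch, 0.12 on the rest of the chromosome and 0.16 elsewhere.

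The 5 genes called inside the stretch went both ways. AT2G37870, of the lipid transfer protein superfamily, was higher in the NIL by 1.76, with 10.13, 10.02 and 10.32 against 7.92, 8.53 and 8.74 in Cvi. The acetyltransferase gene AT2G32020 was higher by 1.01, and its call was lost without NIL array 1 or Cvi array 1. AT2G28780 was lower by 1.30, the peroxidase gene AT2G35380 by 1.21 and AT2G19410, a kinase gene with a U-box, by 1.20. AT2G35380 had 9.06, 8.87 and 9.13 in the NIL, 10.19, 10.19 and 10.31 in Cvi and 8.78 to 9.20 in Ler-2, so that the NIL was with Ler-2 there. AT2G19410 lost its call without Cvi array 1. The nearest called genes beyond the stretch were HIS1-3, 30 measured genes before it, and JAL22, 16 measured genes after it.

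With all arrays, JAL22 (AT2G39310), a jacalin lectin gene, was the only gene at which the NIL was called apart from both accessions on the same side. Without Cvi array 1, where JAL22 lost its call against Cvi, 1 other probe set met this rule. The signal of JAL22 was 7.86, 8.01 and 7.90 in the NIL, 9.23, 8.66 and 8.93 in Cvi and 10.66, 10.49 and 10.60 in Ler-2. The NIL was the lowest of the genotypes, by 1.02 (standard error 0.14, adjusted p = 8.50e-04 from limma) against Cvi. Its call against Cvi was lost without NIL array 1 or Cvi array 1. AT4G03156 on chromosome 4, picked after its values were seen, had all 3 genotypes apart in another way, at 5.95 to 6.43 in the NIL, 7.26, 8.60 and 8.59 in Cvi and 2.58 to 3.27 in Ler-2. The NIL lay between the accessions there, 2.02 below Cvi.

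Neighbouring genes did not always differ in the same direction. At 30 pairs of neighbouring measured genes both were called, 16 in the same direction and 14 in opposite ones. Of all placed genes 3.25% were called, and whether 30 pairs exceed what that share would give was not tested. Close relatives were found among the opposite pairs, and the following were picked after their values were seen. The subtilase genes SBT3.5 and AT1G32950 differed by 2.62 and −1.53. SBT3.5 had 9.11, 8.98 and 8.76 in the NIL and 7.10, 5.77 and 6.12 in Cvi, while AT1G32950 had 5.15, 5.19 and 5.23 in the NIL and 7.11, 6.49 and 6.57 in Cvi. Of 3 adjoining genes for proteins rich in cysteine and histidine, AT5G54030 was higher by 1.25 between AT5G54020 and AT5G54040, which were lower, and its call was lost without Cvi array 3. The lipid recognition genes AT5G23830 and AT5G23840 differed by −1.91 and 1.10, and the latter lost its call without Cvi array 1. Pairs in the same direction included AT4G23670 with AT4G23680 and AT5G19240 with AT5G19250.

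A few genes had more than 1 probe set of their own. Of 144 such genes, 6 had a call, where 3.25% of all placed genes had one. In 0 of the 6 were all probe sets called. AT4G16980 had differences of −3.02 and 0.05 on its probe sets, and AT5G49780 had −2.63 and −0.09. In both genes the uncalled probe set had a mean log2 signal of at most 4.25 in the NIL and in Cvi, so it was dim throughout. The copper amine oxidase gene AT1G31710 had 1.01 and 0.75, in the same direction. GAT1_2.1 had 1.00 and 0.16, AT3G19515 had −1.51 and −0.09 and AT3G61010 had −1.24 and −0.59. Their uncalled probe sets were dim as well. In the NIL and Cvi these had means of 4.54 and 4.38 for GAT1_2.1 and 3.28 and 3.38 for AT3G19515. For AT3G61010 the means were 3.58 and 4.18. The call of GAT1_2.1 was lost without NIL array 1 or Cvi array 1, and that of AT3G61010 without Cvi array 1.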

How the data were processed

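RNA of pooled root tips was hybridized to Affymetrix ATH1 arrays, 3 per genotype. The authors deposited a linear intensity per probe set, already normalized. MAS5 and RMA stand in the submitters' notes on processing, and which of them made the values is unknown here. Detection calls were not used. Precision is limited by the number of arrays, 3 per genotype.

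Of 22810 probe sets, 64 controls were left out. Names came from the annotation of the platform, and 11 of the 19 that the study lists for chromosome 1 were named from that list. Genes were ordered by their start positions in TAIR10.1. Positions served for this order alone, as no build is named for the values. One limma model (version 3.58.1, R 4.3.3, functions lmFit and eBayes) was fitted to log2 signals of the 9 arrays with a term for genotype, leaving 6 residual degrees of freedom. The code of the fit was run on simulated data with a common SD taken from the NIL arrays. These had no outlying array, so the run does not bear on the effect of Cvi array 1.

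The members, gene lists and rules were chosen with earlier results of these data known, and the lists of terpene synthases, peroxidases, jacalins, latex proteins, berberine bridge enzymes, chitinases, germins and polyamine genes were completed after values had been seen. Of 36 lists, 28 have a named member. Named genes were the 15 largest non-overlapping differences in each direction, the 8 largest joint differences from Ler-2 in each direction (1 direction has 7), calls within the stretch, genes apart from both accessions, up to 4 calls per list and OCT1. Others are the study's listed genes. The further plastid genes, family members and neighbouring genes named were picked after their values were seen. Alternatives were another normalization, filter, offset, fit, threshold and the omission of each array.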

Additional observations from a re-analysis of the deposited data

Results flagged for a closer look

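Control probe sets for transcript ends, which entered no comparison above, were read on all arrays. The probe set for the 3′ end of actin (AFFX-r2-At-Actin-3_s_at) differed between the NIL and Cvi by 3.32, with 12.87, 12.91 and 13.06 in the NIL, 10.12, 9.05 and 9.72 in Cvi and 12.87 to 12.95 in Ler-2. A second one for the 3′ end of actin (AFFX-Athal-Actin_3_f_at) differed by 1.38, with 11.41 to 11.47 in the NIL and 9.70 to 10.48 in Cvi. Both were singled out because their signals in the NIL lay above every Cvi array by at least 2-fold in the mean. The middle and 5′ probe sets of the same newer actin design differed by 0.02 and 0.02. The 3′ probe sets of GAPDH differed by −0.11 and −0.27, and those of ubiquitin by 0.10 and −0.19. The NIL and Cvi arrays also did not overlap at 5′ probe sets for ubiquitin (AFFX-Athal-Ubq_5_f_at, higher in the NIL by 0.75) and actin (AFFX-Athal-Actin_5_r_at, higher by 0.31) and at the 3′ probe set for GAPDH with −0.27.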

How the results depend on the processing

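The calls were 772 with all arrays and 544 to 885 under the alternatives other than treat. Under treat, which tests in limma whether the fold exceeds 2, they were 233, 143 higher and 90 lower, fewer by construction. With log2 of the signal plus 16, 242 probe sets were lower in the NIL and 302 higher. Leaving out 1 array at a time gave 713 to 885 calls, 379 to 446 higher and 334 to 439 lower, 44 to 52 probe sets where the NIL and Cvi agree, 0 to 1 genes with the NIL apart from both, and a lowest window share of 0 to 0.461%. Agreement fell to 30 probe sets with the interval within 1.5-fold. The count of genes with the NIL apart was 0 with quantile normalization and with log2 of the signal plus 16. The agreement rules could not be run on 6 arrays. With the replicate number as a block, which did not pair the samples (correlations of deviations −0.16, −0.04 and −0.08), there were 769 calls, 406 higher and 363 lower, 46 agreeing probe sets, 1 gene with the NIL apart, a lowest window share of 0.461% and a longest run of 278 genes, the same run length as with a trend and robust estimation.

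Of 120 probe sets of named genes that were called, 86 kept the call in every alternative fit that held them. The call was lost at 24 with log2 of the signal plus 16, at 12 on 6 arrays only, at 14 without NIL array 3, at 17 without Cvi array 1 and at 2 to 9 without any other single array. No named difference that was called changed sign. Called plastid probe sets were 12 with log2 of the signal plus 16 and 11 without NIL array 3. Peroxidases had 3 calls on 6 arrays only, with the offset and without NIL array 2. Without NIL array 1, glucosinolate genes had 4. Auxin genes had 0 to 2, polyamine genes 0 to 3 and chitinases 2 with the offset. Causes were not tested.

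Without detection calls, the signal over background is unknown, so the fold of genes that are dim in 1 genotype has no fixed size.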
